A study of Mus musculus with 3 samples.

Results

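The interleukin-1 family genes described here are 8 genes measured in mouse cavernous endothelial cells: the ligand genes Il33, Il18, Il1a and Il1b, the antagonist gene Il1rn, and the receptor chain genes Il1rl1, Il1r1 and Il1rap. They were taken by gene symbol from the 19751 genes named on the arrays and are read by 11 probes. They were chosen by the values of these same 3 arrays, the scaled log2 levels with those of Il33 among them, so differences between the arrays are given as a description with no test.

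Cytokines of the interleukin-1 family bind a primary receptor chain, which then pairs with an accessory chain. The accessory chain encoded by Il1rap serves the receptors for interleukin-1 and for interleukin-33, and the paired chains recruit the adaptor MyD88, which leads to activation of NF-kappaB and MAP kinases. Interleukin-33 is a nuclear alarmin of endothelial, stromal and epithelial cells that is released when cells are damaged. Its receptor ST2, encoded by Il1rl1, occurs as a membrane-bound chain and as a soluble decoy.

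The cells were primary endothelial cells grown from the penile cavernous tissue of C57BL/6 mice, and every group was kept in serum-containing medium with vascular endothelial growth factor A. The labels assign 1 array to high glucose (30 mmol) with an siRNA against Ninj1 (200 pmol, given by lipofection), 1 array to high glucose (30 mmol) and 1 array to normal glucose (5 mmol), each after 48 h. Each array was hybridised with RNA pooled from 3 numbered samples, the age of the animals is not given in the sources used here, and neither is any control siRNA on the other arrays. A group is 1 array, so differences cannot be set against the spread between replicates, and no p-value is given.

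Ninj1, the siRNA target, goes against the labels. Its probe read 25539 on the siRNA-labelled, 16291 on the high-glucose-labelled and 20413 on the normal-glucose-labelled array, which after scaling is 0.42 higher in log2 on the siRNA-labelled array than on the high-glucose-labelled array. By their names, the deposited files swap the 2 arrays of high glucose. Slide positions written in the files are 1 for the siRNA-labelled, 3 for the high-glucose-labelled and 2 for the normal-glucose-labelled array, where the names give 2 for the siRNA-labelled, 3 for the high-glucose-labelled and 1 for the normal-glucose-labelled array. Read by the file names, and also by slide position, the siRNA falls to the array labelled high glucose, where Ninj1 was lowest. The reading by slide position also uses the group words in the file names, so these readings are not separate. Which assignment is right was not settled. Arrays are therefore named by their labels throughout, and every direction below depends on those labels being right.

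Signals are background-subtracted intensities in the linear units of the scanner software. Differences are on the log2 scale after each array was scaled to its own 75th percentile. Of all probes, 70.6% were well above background on the siRNA-labelled array, 67.6% on the high-glucose-labelled array and 67.1% on the normal-glucose-labelled array, and no spot was saturated. The error that the scanner software attached to each spot comes to about 0.20 for the log2 difference of a bright probe between 2 arrays. Spots of the same probe on 1 array differed by an SD of 0.06 (median over 300 repeated probes). Both figures leave out variation between cultures and between hybridisations. Over all genes measured on both arrays, the SD of the log2 difference was 0.74 for siRNA over high glucose and 0.20 for high glucose over normal glucose, with medians of 0.01 and -0.01.

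Il33, the alarmin gene, and Il1rl1, the gene of its receptor ST2, were the members with at least 2-fold higher levels on the array labelled siRNA. Their promoter windows are shown to give the sequence at annotated start sites, and the signals do not tell which start site is used. The RefSeq promoter table holds 2 windows for each gene. The RefSeq locus of Il1rl1 begins upstream of both of its windows, so its most upstream end is not shown. Each window holds 250 bases before and 50 bases after the start, on the + strand of GRCm38.p6. Capitals mark the letters of a motif that was searched.
Il33 window 1, chr19:29924863-29925162: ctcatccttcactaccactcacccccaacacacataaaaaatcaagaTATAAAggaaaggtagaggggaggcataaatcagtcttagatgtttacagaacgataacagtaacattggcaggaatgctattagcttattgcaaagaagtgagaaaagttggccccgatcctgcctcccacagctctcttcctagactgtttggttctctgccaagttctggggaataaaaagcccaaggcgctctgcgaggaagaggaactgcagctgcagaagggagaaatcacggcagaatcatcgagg
Il33 window 2, chr19:29945540-29945839: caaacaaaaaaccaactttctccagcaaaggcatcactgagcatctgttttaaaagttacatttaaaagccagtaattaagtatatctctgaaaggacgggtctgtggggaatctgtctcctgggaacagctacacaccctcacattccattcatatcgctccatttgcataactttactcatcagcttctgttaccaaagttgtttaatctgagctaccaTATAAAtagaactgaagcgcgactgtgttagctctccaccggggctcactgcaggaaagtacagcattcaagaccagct
Il1rl1 window 1, chr1:40429320-40429619: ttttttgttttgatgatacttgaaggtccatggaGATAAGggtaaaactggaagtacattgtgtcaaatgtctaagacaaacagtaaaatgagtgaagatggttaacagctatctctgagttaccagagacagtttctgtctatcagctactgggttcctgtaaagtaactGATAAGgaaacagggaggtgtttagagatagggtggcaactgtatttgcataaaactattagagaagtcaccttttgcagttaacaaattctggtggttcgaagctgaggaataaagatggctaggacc
Il1rl1 window 2, chr1:40439379-40439678: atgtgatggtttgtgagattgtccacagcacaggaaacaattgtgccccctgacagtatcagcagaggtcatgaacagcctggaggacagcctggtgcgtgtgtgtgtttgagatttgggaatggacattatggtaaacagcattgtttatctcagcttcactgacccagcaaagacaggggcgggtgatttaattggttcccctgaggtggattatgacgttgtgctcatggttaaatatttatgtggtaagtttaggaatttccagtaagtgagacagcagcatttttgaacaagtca

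The search covered 4 motifs on both strands: the AP-1 letters TGANTCA, the GATA letters GATAAG, the STAT pattern TTCNNNGAA and the TATA box TATAAA. The TATA box letters stand at -29 in Il33 window 2, counted from the start site, and at -203 in Il33 window 1. In Il1rl1 window 1 the GATA letters occur at -216 and at -79, and Il1rl1 window 2 holds none of the 4 motifs. Of the 32851 RefSeq promoter windows, 13.6% hold TATAAA and 7.44% hold GATAAG. AP-1 letters are found in 7.81% of all windows and the STAT pattern in 8.30%, and neither is in the windows of Il33 or Il1rl1. Among the other members, Il1a has the AP-1 letters at -12 and Il1rn window 1 has them at -141. The TATA box letters are not particular to Il33: they stand at -32 in Il1a and at -31 in Il1b. On the opposite strand they occur at 14 in Il1rn window 3 and at -175 in Il18. These matches describe letters and no measured binding.

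The Il33 probe (A_55_P1964960) read 11592 ± 1159 on the siRNA-labelled, 885 ± 88.7 on the high-glucose-labelled and 832 ± 83.3 on the normal-glucose-labelled array (± scanner error, 1 spot per array). The siRNA-labelled array thus stood alone, while the other arrays lay within each other's scanner error. After scaling, Il33 was 11.2-fold higher on the siRNA-labelled than on the high-glucose-labelled array, a log2 difference of 3.48. That difference was the 8th highest of 14505 measured genes. Il33 differed by 0.13 in log2 between high glucose and normal glucose, less than the scanner error of such a difference. Against the normal-glucose-labelled array the siRNA-labelled array was 12.2-fold higher, the 3rd highest of 14458 genes. The comparisons share arrays, so these ranks are not separate observations.

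Il1rl1 was read by 3 probes, and each was highest on the array labelled siRNA. The brightest probe (A_51_P339793, annotated to NM_010743) read 271212 on the siRNA-labelled, 97544 on the high-glucose-labelled and 102551 on the normal-glucose-labelled array. A second probe (A_55_P2027737, annotated to NM_001025602) read 82919 on the siRNA-labelled, 21030 on the high-glucose-labelled and 22622 on the normal-glucose-labelled array. The dimmest probe (A_55_P2027731, also annotated to NM_001025602) read 3212 on the siRNA-labelled, 262 on the high-glucose-labelled and 345 on the normal-glucose-labelled array. The high-glucose and normal-glucose arrays were close at the brighter probes and further apart at the dimmest.

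The probes of Il1rl1 gave the same direction and different sizes for siRNA over high glucose. The log2 difference was 1.25 (2.38-fold) at the brightest probe, 1.75 (3.37-fold) at the second and 3.39 (10.5-fold) at the dimmest. The probes annotated to the same transcript thus differed from each other by more than the scanner error. Which protein form of ST2 each transcript encodes is not given in the tables used here. Between high glucose and normal glucose the log2 differences were -0.03, -0.06 and -0.36 in the same order, the last of which exceeds the scanner error. Against normal glucose, the siRNA-labelled array was 2.32-fold, 3.22-fold and 8.19-fold higher in that order.

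**Figure D1:**
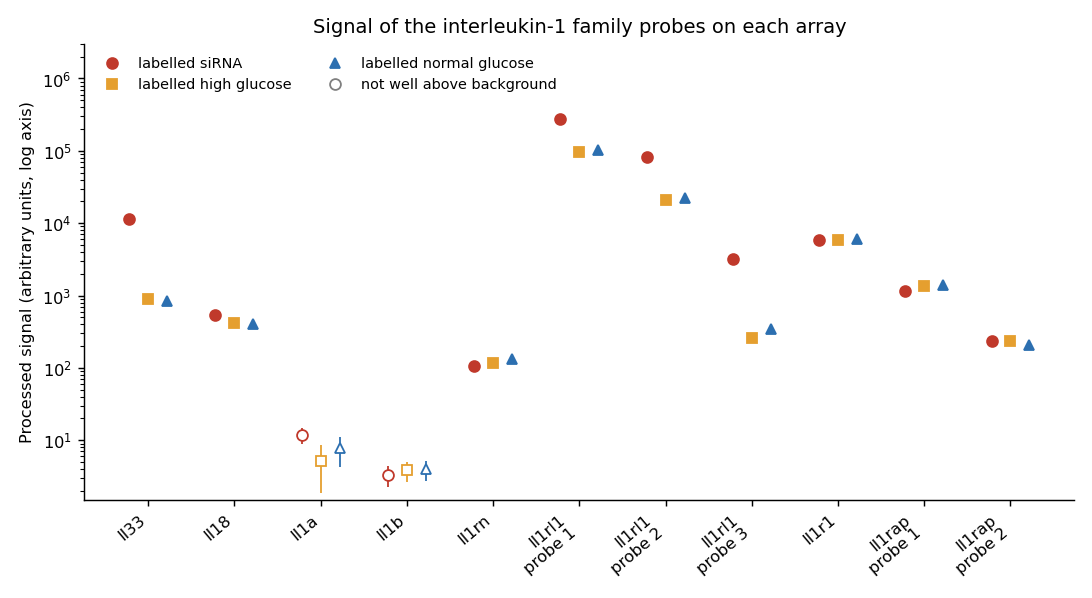
Processed signal (linear intensity units, log axis) of each probe of the 8 genes on the arrays labelled siRNA, high glucose and normal glucose, with 1 array per group. Bars are the scanner error, open symbols are not well above background, and Il33 and all 3 Il1rl1 probes are highest on the array labelled siRNA.

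Il1r1 encodes the primary signalling receptor for interleukin-1. Its probe read 5831 on the siRNA-labelled, 5810 on the high-glucose-labelled and 5966 on the normal-glucose-labelled array. After scaling it differed by -0.22 between siRNA and high glucose, close to the scanner error, and by 0.003 between high glucose and normal glucose.

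Il1rap, the accessory chain shared with the ST2 receptor, was read by 2 probes. The brighter (A_52_P467232) read 1147 on the siRNA-labelled, 1351 on the high-glucose-labelled and 1382 on the normal-glucose-labelled array, a log2 difference of -0.46 for siRNA over high glucose. The other (A_55_P2041422) read 236 on the siRNA-labelled, 233 on the high-glucose-labelled and 210 on the normal-glucose-labelled array, a difference of -0.21. The direction was shared for siRNA over high glucose, and neither probe reached 2-fold. For high glucose over normal glucose the probes gave 0.01 and 0.19. For siRNA over normal glucose they gave -0.46 and -0.02. The dimmer probe stayed within the scanner error in all 3 comparisons, so the lower level on the siRNA-labelled array rests on the brighter probe.

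Among the other ligands and the antagonist, Il18, which encodes a ligand matured by caspase-1, read 533 on the siRNA-labelled, 421 on the high-glucose-labelled and 407 on the normal-glucose-labelled array. Its scaled log2 difference was 0.11 for siRNA over high glucose and 0.09 for high glucose over normal glucose, both within the scanner error. Il1rn, which encodes the receptor antagonist that blocks interleukin-1, read 108 on the siRNA-labelled, 117 on the high-glucose-labelled and 131 on the normal-glucose-labelled array. Its log2 difference was -0.35 for siRNA over high glucose and -0.13 for high glucose over normal glucose. The order of the arrays for Il1rn is the reverse of that for Il33, with differences of at most 1.39-fold. For both genes the high-glucose and normal-glucose arrays lay within the scanner error, so the order of those arrays is not settled.

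Il1a and Il1b, the genes of the classical interleukin-1 ligands, were not well above background on any array, so no fold is given. Il1a read 11.8 on the siRNA-labelled, 5.17 on the high-glucose-labelled and 7.76 on the normal-glucose-labelled array. Il1b is printed in 10 spots per array, whose geometric mean was 3.30 on the siRNA-labelled, 3.85 on the high-glucose-labelled and 3.94 on the normal-glucose-labelled array. A single Il1b spot on the siRNA-labelled array, with a signal of 24.2, was marked as an outlier by the scanner software and left out.

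Of the 8 genes, 6 could be compared between arrays. For siRNA over high glucose 2 of the 6 (Il33 and Il1rl1) were higher by 2-fold or more and 0 were lower, where 6.56% of all 15618 genes compared were higher and 8.31% were lower by that much. For high glucose over normal glucose 0 were higher and 0 lower, against 0.889% and 0.756% of 15077 genes. For siRNA over normal glucose 2 were higher and 0 lower, against 6.41% and 8.03% of 15574 genes. Since the genes were chosen with these values known, nothing is read from the counts.

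**Figure D2:**
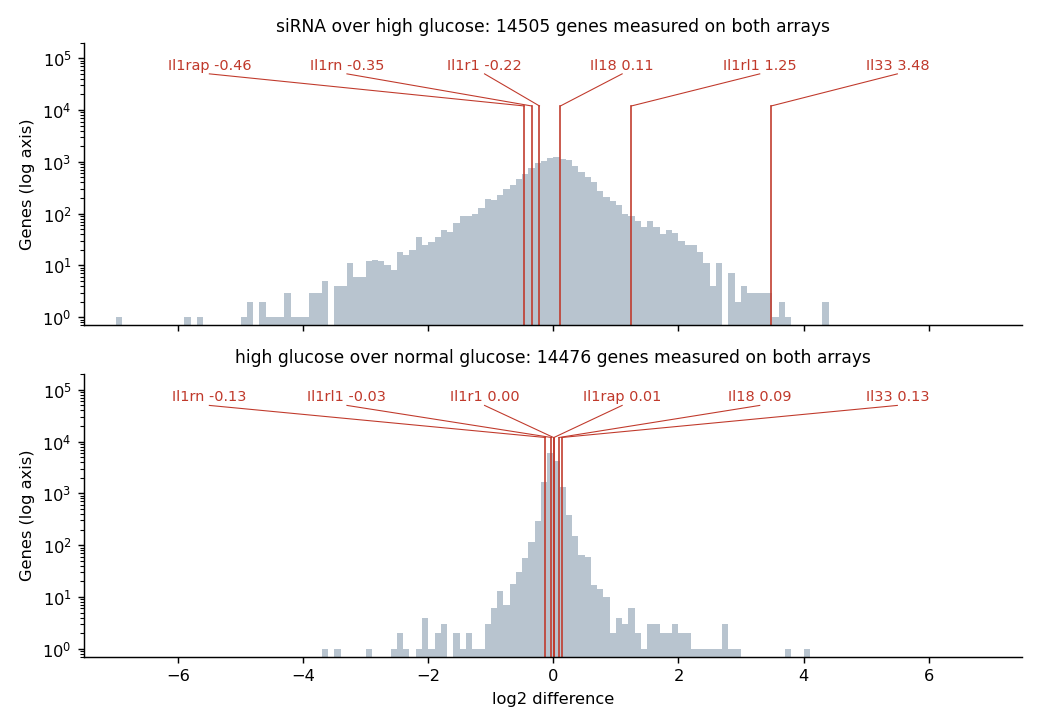
Histograms of the log2 difference of all genes measured on both arrays (number of genes, log axis) for siRNA over high glucose and for high glucose over normal glucose, with red lines at the 6 measured interleukin-1 genes. In the upper panel Il33 lies in the far right tail and Il1rl1 on the right shoulder, and in the lower panel all 6 lie near 0.

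**Figure D3:**
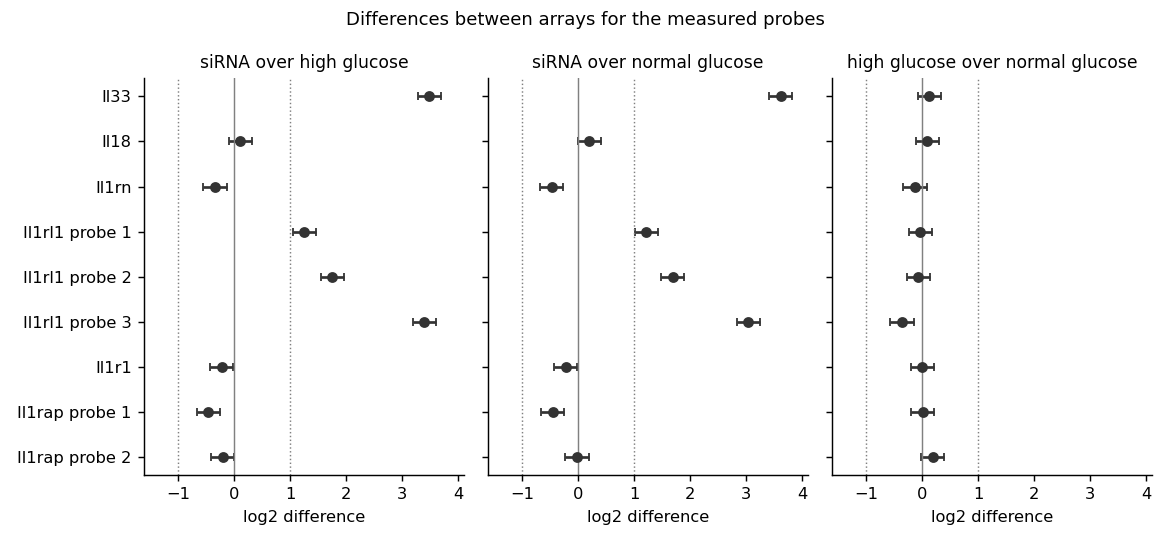
Scaled log2 difference of each measured probe for siRNA over high glucose, siRNA over normal glucose and high glucose over normal glucose, with bars for the scanner error and dotted lines at 2-fold. The Il33 and Il1rl1 probes lie past the upper 2-fold line for siRNA over high glucose, and the remaining probes lie between -0.46 and 0.11.

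The genes whose scaled levels over the 3 arrays were nearest to those of Il33, by Euclidean distance of the differences among 14346 genes above background on all 3, were Areg (a distance of 0.03), Atp13a4 (0.11) and Cstdc4 (0.14). Areg, an epidermal growth factor receptor ligand, read 924 on the siRNA-labelled, 71.7 on the high-glucose-labelled and 65.1 on the normal-glucose-labelled array and differed by 3.46 in log2 for siRNA over high glucose. Among the 3 nearest to the brightest Il1rl1 probe were Dpysl4, at 2.37-fold higher, and Pvr, at 2.40-fold higher. With 3 arrays such likeness is easily met and is given as a description.

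Il1rl1 lies in a row of 6 interleukin-1 receptor genes on chromosome 1, in the order Il1r2, Il1r1, Il1rl2, Il1rl1, Il18r1 and Il18rap. This neighbourhood was looked at after the values were seen. Il1r2, the decoy receptor for interleukin-1, read 31.3 on the siRNA-labelled, 95.1 on the high-glucose-labelled and 83.7 on the normal-glucose-labelled array and was 3.56-fold lower for siRNA over high glucose. Il18rap, the accessory chain of the interleukin-18 receptor, read 367 on the siRNA-labelled, 98.6 on the high-glucose-labelled and 116 on the normal-glucose-labelled array and was 3.18-fold higher. The log2 differences for siRNA over high glucose were -1.83 for Il1r2, -0.22 for Il1r1, 0.10 for Il1rl2, 1.25 for Il1rl1 and 1.67 for Il18rap. The values went both ways, but those for Il1r1 and Il1rl2 were small. A clearly lower level thus rests on Il1r2 alone, which was read by 1 probe at dim signals. Il18r1 was well above background on the siRNA-labelled array alone, at 25.3, and was at least 1.27-fold higher there. Of the flanking genes with a value, Map4k4, on the side of Il1r2, differed by 0.02. Slc9a2, on the side of Il18rap, read 43.8 on the siRNA-labelled array, was not well above background on the others, and was at least 2.28-fold higher for siRNA over high glucose.

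**Figure D4:**
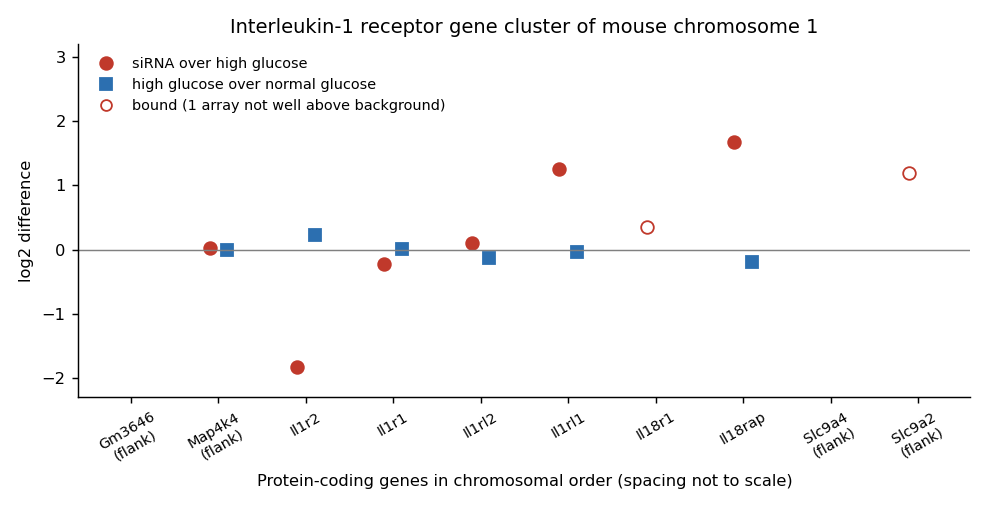
Log2 differences for siRNA over high glucose and for high glucose over normal glucose of the 6 receptor genes of the chromosome 1 row and their flanking genes, in gene order without distances; open symbols are lower bounds, and genes without a symbol have no value. Values for siRNA over high glucose run between -1.83 at Il1r2 and 1.67 at Il18rap, while those for high glucose over normal glucose stay between -0.19 and 0.23.

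Of 13 further family ligands, receptors and binding proteins, 8 could be compared for siRNA over high glucose. Il18rap was at least 2-fold higher, and Il1r2 and Il18bp were at least 2-fold lower, where 6.56% of all genes compared were higher and 8.31% lower. These genes had a median log2 difference of 0.10 over the 5 measured on both arrays beside 0.01 over all genes. The remaining 3, Il18r1, Il1f6 and Il1f10, were well above background on the siRNA-labelled array alone and entered the comparison through it, so their higher side is set by the background filter; with them at their bound the median was 0.53 beside 0.02, and nothing is read from it. Il18bp, the secreted antagonist of interleukin-18, read 1071 on the siRNA-labelled, 2432 on the high-glucose-labelled and 2143 on the normal-glucose-labelled array and was 2.66-fold lower. Sigirr, an inhibitory receptor of the family, was 1.63-fold higher. None of the 5 compared for high glucose over normal glucose passed 2-fold.

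Of 16 genes of interleukin-1 processing and the inflammasome, 14 entered the comparison for siRNA over high glucose. They include Aim2, which was well above background on the siRNA-labelled array alone and too dim there for a fold. By 2-fold or more 0 were higher and 2 lower, where 6.56% of all genes were higher and 8.31% lower. Counts this small are near those shares. The median log2 difference of the 12 measured on both arrays was -0.32, beside 0.01 over all genes. Casp1, the protease that matures interleukin-1 beta and interleukin-18, read 161 on the siRNA-labelled, 359 on the high-glucose-labelled and 365 on the normal-glucose-labelled array and was 2.61-fold lower. Nlrp1a, an inflammasome sensor, was 2.11-fold lower, although its near-identical paralogs may share its probes. Gsdmd, the pore-forming gasdermin cleaved by caspase-1, was 1.93-fold lower, Capn1, a calpain subunit, was 1.54-fold lower and Nlrp3, a further sensor, was 1.69-fold higher. Between high glucose and normal glucose 0 of 13 passed 2-fold.

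Of 26 genes of receptor signalling, 26 could be compared, of which 2 were higher and 1 lower by 2-fold or more for siRNA over high glucose, near the 6.56% and 8.31% of all genes. The median log2 difference was -0.04 beside 0.01. Tnfaip3, which encodes the NF-kappaB inhibitor A20, read 1869 on the siRNA-labelled, 3744 on the high-glucose-labelled and 3971 on the normal-glucose-labelled array and was 2.34-fold lower for siRNA over high glucose. Ikbkg, the regulatory subunit of the IkappaB kinase, was 2.11-fold higher. Mapk8, a Jun kinase, was 2.18-fold higher at its brightest probe, and 1 of its 2 other probes gave the same direction. Map3k8 was 1.88-fold lower, and Nfkb1, an NF-kappaB subunit, was 1.43-fold lower. Myd88, the receptor adaptor, differed by -0.32 and Irak1, a receptor-associated kinase, by -0.12. Between high glucose and normal glucose 0 of 26 passed 2-fold.

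Of 24 genes known to be induced by interleukin-1 in other cells, 23 could be compared for siRNA over high glucose, with 7 higher and 3 lower by 2-fold or more, where 6.56% of all genes were higher and 8.31% lower. The median log2 difference was -0.43 beside 0.01 over all genes, and 14 of 23 were lower. The differences past 2-fold ran in both directions, with more of them higher than lower. That balance depends on the threshold. Ptges, 2.00-fold higher, and Zc3h12a, 2.04-fold lower, lay just past it. Saa3, 1.95-fold lower, and Nos2, 1.87-fold lower, fell just short of it. Cxcl5, a neutrophil chemokine, read 31499 on the siRNA-labelled, 183716 on the high-glucose-labelled and 184393 on the normal-glucose-labelled array and was 6.83-fold lower. Il6, a cytokine of the acute phase, read 55604 on the siRNA-labelled, 10028 on the high-glucose-labelled and 11218 on the normal-glucose-labelled array and was 4.74-fold higher. Csf3, the granulocyte colony-stimulating factor, was 4.90-fold higher. Lif, a cytokine of the interleukin-6 family, was 3.87-fold higher. Sele, the endothelial adhesion molecule E-selectin, was 4.21-fold higher at dim signals. It read 154 on the siRNA-labelled, 31.1 on the high-glucose-labelled and 30.5 on the normal-glucose-labelled array. For high glucose over normal glucose 0 of 23 passed 2-fold, and for siRNA over normal glucose 5 were higher and 2 lower by that measure, where 6.41% and 8.03% of all genes were.

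**Figure D5:**
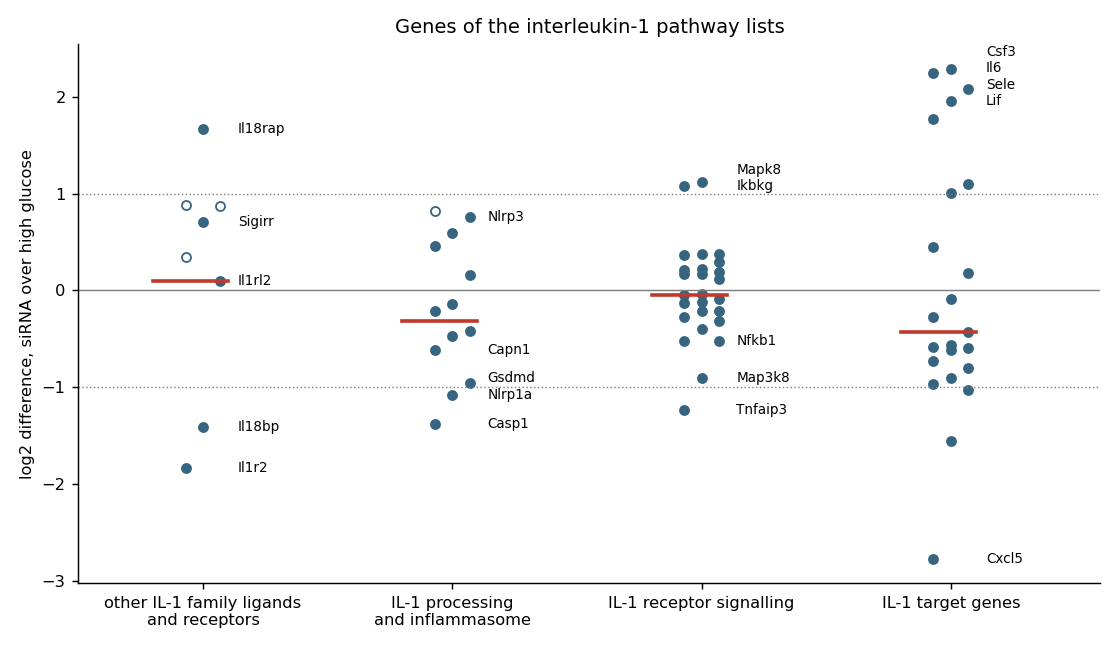
Log2 difference for siRNA over high glucose of the genes of the 4 lists, 1 point per gene, with open points for bounds, a red bar for the median of the measured genes, dotted lines at 2-fold and the named genes labelled. The target genes spread the most, between -2.77 for Cxcl5 and 2.29 for Csf3.

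Markers of cell types that can make or bind interleukin-33, or that the cultures could hold, also differed between the arrays, chiefly the fibroblast and smooth muscle markers. Their levels were summed after scaling, in units of each array's 75th percentile, over the markers well above background on that array. Such a sum is carried by the brightest genes, so the single-gene differences for siRNA over high glucose stand beside it. Of all 15618 genes compared, 6.56% were higher and 8.31% lower by 2-fold or more, with a median of 0.01. The marker lists are short, so counts of a few genes say little beside these shares.

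All 12 fibroblast markers were well above background on every array, with sums of 510 on the siRNA-labelled, 708 on the high-glucose-labelled and 706 on the normal-glucose-labelled array. Of these 12 genes 0 were higher and 6 lower by 2-fold or more, beside 6.56% and 8.31% of all genes compared. Their median log2 difference was -1.08, beside 0.01 over all genes. The largest differences were those of Dpt, a matrix protein gene, at 8.46-fold lower, and Lum, which encodes the proteoglycan lumican, at 6.79-fold lower. Dcn, the brightest marker of the list, was 1.33-fold lower. In all, 10 were lower and 2 higher, Fap by 1.81-fold and Thy1 by 1.07-fold. Of 9 smooth muscle and pericyte markers, 8 were well above background on the siRNA-labelled array and 7 on each of the others, with sums of 29.2 on the siRNA-labelled, 56.1 on the high-glucose-labelled and 55.2 on the normal-glucose-labelled array. In this list 1 gene was higher and 4 were lower by 2-fold or more, with a median of -1.13 over the 7 measured on both arrays, and Myh11 did not reach well above background anywhere.

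Of 15 endothelial markers, 10 were well above background on the siRNA-labelled array, 12 on the high-glucose-labelled and 12 on the normal-glucose-labelled array, with sums of 8.67 on the siRNA-labelled, 8.04 on the high-glucose-labelled and 7.92 on the normal-glucose-labelled array. Tie1, Emcn and Erg were not well above background on any array, and Tek and Cldn5 were not on the siRNA-labelled array. Pecam1, a defining junction gene of endothelium, read 72.4 on the siRNA-labelled, 76.5 on the high-glucose-labelled and 61.9 on the normal-glucose-labelled array. The list went both ways, with 2 genes higher and 3 lower by 2-fold or more and a median of -0.18 over the 10 measured on both arrays. Cdh5, the gene of VE-cadherin, differed by 1.51 in log2, Vwf by -1.26 and Kdr, the brightest marker, by -0.05. Some endothelial markers were thus dim or not well above background, while others were bright. Kdr read 8278 on the siRNA-labelled, 7298 on the high-glucose-labelled and 7440 on the normal-glucose-labelled array. In the same order, Egfl7 read 5967, 3194 and 3355, and Eng read 1500, 2242 and 2207.

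Macrophage markers counted 9 of 10 on every array, without Cd163, with sums of 21 on the siRNA-labelled, 19.8 on the high-glucose-labelled and 20.5 on the normal-glucose-labelled array. Among these 9 genes 1 was higher and 3 were lower by 2-fold or more, with a median of -0.30. Cd14 was 2.86-fold higher, while Adgre1 was 4.18-fold, Lyz2 4.13-fold and the dim Ptprc 2.39-fold lower. Of 9 keratinocyte and epithelial markers, 6 were well above background on the siRNA-labelled array and 5 on each of the others, with sums of 2.05 on the siRNA-labelled, 2.2 on the high-glucose-labelled and 2.25 on the normal-glucose-labelled array. Of the 6 compared, among them Dsp, which was too dim for a fold, 2 were higher and 0 lower by 2-fold or more. The median was 0.52 over the 5 measured on both arrays. Krt8, Epcam and Cdh1 were not well above background on any array. Of 7 mast cell markers with a probe, 4 were well above background on the siRNA-labelled, 3 on the high-glucose-labelled and 2 on the normal-glucose-labelled array, with sums of 0.371 on the siRNA-labelled, 0.379 on the high-glucose-labelled and 0.377 on the normal-glucose-labelled array. The 3 mast cell markers measured on both arrays had a median of -0.29, and Cma1, Fcer1a and Ms4a2 were not well above background on any array. Of the 4 mast cell markers compared, 1 was higher and 0 lower by 2-fold or more. The higher one was Cpa3, well above background on the siRNA-labelled array alone, with a bound of 1.96 in log2. Of 10 markers of T cells and type 2 innate lymphoid cells, 7 were well above background on the siRNA-labelled, 6 on the high-glucose-labelled and 7 on the normal-glucose-labelled array, with sums of 4.06 on the siRNA-labelled, 3.94 on the high-glucose-labelled and 3.92 on the normal-glucose-labelled array. The median was -0.08 over the 5 measured on both arrays, and Cd8a and Il13 were not well above background on any array. Of the 8 markers of this list compared, 1 was higher and 1 lower by 2-fold or more. The higher one was Areg, at 3.46 in log2. The lower one was Il7r, not well above background on the siRNA-labelled array, with a bound of -2.26 in log2. Probes differ in brightness, so sums give no share of cells, and fewer cells of a type and less RNA per cell cannot be told apart. The part of these markers in the differences of the interleukin-1 genes was not tested.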

How the data were processed

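Total RNA pooled per group was hybridised with Cy3 to 3 arrays of 1 slide, per the labels' protocols. The authors deposited spot intensity on a linear scale, extracted and background-subtracted with Agilent Feature Extraction 11.0.1.1, per the file headers. The deposited series value table holds the same linear intensity: for single-spot probes it equals each array's own processed signal within 0.1%, with column medians of 129 for siRNA, 118 for high glucose and 118 for normal glucose, so its scale is linear without centring.

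From there, spots marked as outliers were left out (107 on the siRNA-labelled, 147 on the high-glucose-labelled and 109 on the normal-glucose-labelled array), log2 signals were averaged per probe, and the 75th percentile of each array was subtracted. A probe was well above background where at least 50% of its spots carried that mark. Where 1 of 2 arrays fell short, the bright value was set against the higher of the dim value and the lowest signal well above background there. Where the bright value did not exceed that level, no fold was given, and the gene still counted among those compared. Probes were named through accessions in the RefSeq gene table of GRCm38.p6 (26055 of 39429 probes, 66.1%). The files were annotated on mm9, so gene coordinates are not given. Each gene is represented by its brightest probe well above background on at least 1 array. Promoter windows came from RefSeq.

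The members and gene lists were chosen with earlier results of these data known. The genes named from each list are the 5 with the largest measured difference for siRNA over high glucose, together with the nearest 3 patterns of Il33 and Il1rl1; Myd88, Irak1 and the single cell type markers were named after their values were seen. Of the nearest genes, 1 is not reported here. No p-value is given, since the design has 1 array per group, a number that limits the precision. The steps were tested on simulated data. R 4.3.3 with limma 3.58.1 ran the alternative normalizations, and Python 3.11.15 ran the rest. The alternatives were quantile normalization, cyclic loess, median scaling, normexp with an offset of 50 on median spot and median background signals in place of the processed signal, the value table, other filters, averaging the probes of a gene, 1.5-fold and 3-fold thresholds and other assignments of the arrays. Slide position and single Il1rl1 probes were alternatives chosen after seeing the data.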

Additional observations from a re-analysis of the deposited data

How the results depend on the processing

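No paired analysis was possible because each group has 1 array, and for the same reason no replicate could be left out. Over the 8 processing alternatives that kept the 2-fold threshold and the labels, the counts of interleukin-1 genes past 2-fold did not change, and Il33 stayed between 3.35 and 3.50 in log2 for siRNA over high glucose. Il1rl1 lay between 1.07 and 2.13, the upper value being the mean over its probes, and Il18 between -0.10 and 0.18. At 3-fold, 1 gene was higher for siRNA over high glucose and 1 for siRNA over normal glucose, in place of 2 each. Other assignments of the arrays change the result by construction. With the 2 high-glucose arrays exchanged, as the file names have it, 0 genes were higher and 2 lower for siRNA over high glucose, 2 were higher for high glucose over normal glucose and 0 were higher for siRNA over normal glucose. Il33 then stood at -3.48 and Il1rl1 at -1.25 for siRNA over high glucose, and Il1rl1 at -0.031 for siRNA over normal glucose. With arrays assigned by slide position, added after the data were seen, 0 were higher for siRNA over high glucose, 2 were lower for high glucose over normal glucose, and 0 were higher and 2 lower for siRNA over normal glucose. Il33 then stood at -3.48 and Il1rl1 at -1.25 for siRNA over normal glucose, and Il1rl1 at -0.031 for siRNA over high glucose. Of the remaining single-gene values, 133 moved by less than the spot noise of a difference (0.08 in log2) and 50 by more. Many of the 133 could not move: the value table, the filters, averaging for genes with 1 probe and the brightest Il1rl1 probe repeat the main values. The 50 include values from the other assignments of the arrays. The tally is therefore no measure of how stable the values are. Over all genes, the alternative that took median spot and median background signals with normexp and an offset of 50 gave 622 higher and 787 lower for siRNA over high glucose, in place of 1025 and 1298, 607 and 774 for siRNA over normal glucose, in place of 998 and 1251, and 46 and 34 for high glucose over normal glucose, in place of 134 and 114. For high glucose over normal glucose the unfiltered counts were 456 and 350, and those for probes above background on every array 40 and 26. Il1a and Il1b are limited by signal over background, so their levels have no order between the arrays.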
